A study of Drosophila melanogaster with 6 samples.

Results

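The organic anion transporting polypeptides (Oatps) of the fly are membrane carriers, and all 8 Oatp genes listed for the family were taken as members. They were found as the probe sets annotated to a single one of these genes, which gave 8 probe sets, 1 per gene, among 11982 genes measured. RNA came from whole males of W1118, which the labels call wild type and which carries a mutation of the white eye-pigment gene in both groups. The control group was kept on control medium and the LCA group on medium with 50 µmol/l lithocholic acid (LCA), both up to an age of 30 days. Each group had 3 Affymetrix arrays, each carrying RNA of a pool of 10 flies, and the few arrays limit the precision. Separate cultures are not named for the pools, so a p-value here weighs a difference only against the spread from pool to pool, which may be technical.

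Oatps belong to a carrier family that moves large, amphipathic organic anions across cell membranes without using the sodium gradient. In vertebrates, relatives in the liver take up bile acids, steroid conjugates and drugs, and LCA is itself a bile acid, formed by bacteria of the vertebrate gut. In the fly, Oatps are known from the Malpighian tubules, the organs that secrete the primary urine and clear organic anions and toxins, from the glia of the blood-brain barrier, and as importers of the steroid hormone ecdysone. Whole-fly RNA mixes all of these tissues, so less transcript per cell and fewer cells of a kind cannot be told apart.

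The genes fall into a tandem cluster and 5 genes outside it. Oatp58Da, Oatp58Db and Oatp58Dc are direct neighbours in the gene annotation, in this order, and are known as enriched in the Malpighian tubules. Oatp58Dc is also known to keep organic anions out of the fly brain at the blood-brain barrier. Oatp33Ea and Oatp33Eb lie on either side of 1 coding gene, CG5421. Oatp26F, Oatp30B and Oatp74D stand alone. The gene annotation lists the synonym EcI, short for ecdysone importer, for Oatp74D, and numbered EcI synonyms for Oatp33Ea, Oatp58Db and Oatp58Dc. Oatp74D is the importer that fly tissues need for their response to ecdysone during development.

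Array medians on the log2 scale were close but did not overlap between diets, at 6.31 to 6.35 in control and 6.38 to 6.39 in LCA arrays. With the medians centred, the median Oatp difference (LCA minus control) was −0.44, against −0.39 without. The count of all genes lower in LCA flies at an unadjusted p under 0.05 in limma was then 1585, against 1171. The first principal component of all probe sets held 54.1% of the variance. On it control replicate 1 was the array farthest out, at −42.7, where the other arrays lay between −15.4 and 21.4. The testis markers described below had their lowest median in that array too, −0.73 relative to each gene's mean, against −0.18 to 0.36 in the other arrays. All levels below of a gene are log2 signals of 1 probe set, the one with the highest mean where a gene has several. All differences are LCA minus control. Signals of different genes are not compared as levels, because probe sets differ in brightness.

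The diet comparison asks whether Oatp transcripts differ in flies fed a bile acid. Of the 8 Oatp genes, 7 were lower in LCA flies, while 50.3% of all 11982 genes were lower. Their median difference was −0.39, against −0.0016 over all genes. In 4 Oatp genes (Oatp74D, Oatp30B, Oatp58Db and Oatp58Da) all LCA arrays lay under all control arrays, a pattern that 15.0% of all genes showed. The same 4 genes were lower at an unadjusted p under 0.05 in limma, as were 9.77% of all genes. In the opposite direction no Oatp gene reached either mark, which 11.2% (arrays apart) and 8.33% (unadjusted p) of all genes did. None of the 8 passed limma's Benjamini-Hochberg adjusted threshold of 0.05, and neither did any of the 11982 genes (0%). The adjusted p of the Oatp genes ran from 0.134 to 0.983. The count of 4 was 2 without control replicate 2, where that over all genes was 822, down from 1171.

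**Figure D1:**
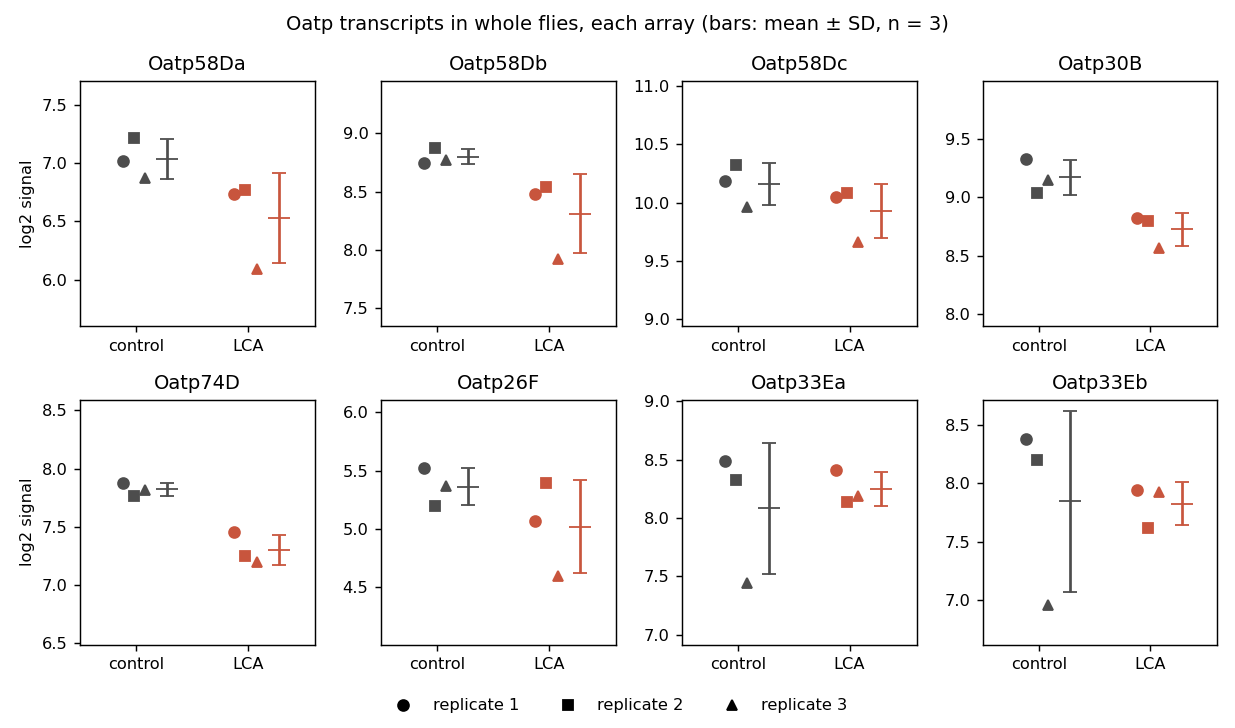
Log2 signal of each Oatp gene in each of the 6 arrays, with the mean and SD of each diet (n = 3) beside the points and the same span on every vertical axis. Oatp58Da, Oatp58Db, Oatp30B and Oatp74D have no LCA point at or above a control point, and control replicate 3 lies far under the other control arrays in Oatp33Ea and Oatp33Eb.

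Among the ecdysone importers, Oatp74D had the smallest p of the family. Its log2 signal was 7.88, 7.77 and 7.82 in control replicates 1 to 3 and 7.45, 7.25 and 7.20 in LCA replicates 1 to 3. The diets were separated by a gap of 0.31, wider than the range within either diet. The means were 7.82 ± 0.06 in control flies and 7.30 ± 0.13 in LCA flies (SD, n = 3 each). The difference was −0.52 ± 0.10 (SE; 95% interval −0.75 to −0.29), a signal 30.2% lower, with an adjusted p of 0.134 in limma over all genes. Its unadjusted p, 0.00127, ranked 113 among the 11982 genes. An exact two-sided permutation test gave p = 0.1, the smallest that 3 against 3 arrays allow. Leaving out each array in turn kept the difference between −0.59 and −0.47. With the 3′ to 5′ difference of the array controls in the fit it was −0.55, and with the testis markers −0.45.

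The other genes with an EcI synonym did not share 1 pattern. Oatp58Db and Oatp58Dc were lower in LCA flies by unequal amounts, as described with their cluster, and Oatp33Ea was at 0.16 ± 0.27 (SE), with a 95% interval from −0.48 to 0.80.

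Oatp58Da and Oatp58Db, the first members of the tubule cluster, were lower in LCA flies by nearly the same amount. Oatp58Da read 7.01, 7.22 and 6.87 in control replicates 1 to 3 and 6.73, 6.77 and 6.09 in LCA replicates 1 to 3. LCA replicate 3 was well under the other LCA arrays, and a gap of 0.10 separated the diets. The difference was −0.50 ± 0.20 (SE; 95% interval −0.99 to −0.02), with an adjusted p of 0.265 in limma. Without LCA replicate 3 it was −0.28.

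Oatp58Db read 8.75, 8.88 and 8.78 in control replicates 1 to 3 and 8.48, 8.54 and 7.92 in LCA replicates 1 to 3. The control arrays lay close together, and LCA replicate 3 was again the lowest array. The means were 8.80 ± 0.07 in control flies and 8.31 ± 0.34 in LCA flies (SD, n = 3 each). The difference was −0.49 ± 0.17 (SE; 95% interval −0.90 to −0.08), a signal 28.8% lower, with an adjusted p of 0.243 in limma. Without LCA replicate 3 it was −0.29.

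Oatp58Dc, the third gene of the cluster, differed less and its diets overlapped. It read 10.19, 10.32 and 9.96 in control replicates 1 to 3 and 10.05, 10.08 and 9.66 in LCA replicates 1 to 3. Control replicate 3 lay under LCA replicates 1 and 2. The difference was −0.22 ± 0.15 (SE; 95% interval −0.58 to 0.13), with an adjusted p of 0.416 in limma, and −0.09 without LCA replicate 3.

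Differences between the cluster genes within an array remove only what shifts both probe sets by the same amount. Oatp58Da minus Oatp58Dc was −3.12 ± 0.04 in control flies and −3.40 ± 0.15 in LCA flies (SD, n = 3 each), without overlap. Oatp58Db minus Oatp58Dc was −1.35 ± 0.15 and −1.62 ± 0.11, also without overlap. Oatp58Da minus Oatp58Db was −1.77 ± 0.13 in control flies and −1.78 ± 0.05 in LCA flies, and overlapped between diets. Such a difference between probe sets carries their unequal brightness, and only its shift between diets can be read. Probe sets may also respond unequally to the same change, and Oatp58Dc is known from the blood-brain barrier too. What lies behind the shifts was not tested. The shift of the first pair, −0.28, and of the second, −0.27, both had an exact two-sided permutation p of 0.1, the smallest possible, and 0.7 after adjustment over the 28 pairs of Oatp genes computed, so neither passed. Diets did not overlap in 4 of the 28 pairs, the others being Oatp30B with Oatp33Ea and Oatp33Ea with Oatp74D. Among single genes, 15.0% of all 11982 were lower without overlap and 11.2% higher. No such share is given here for pairs of other genes, so the count does not set the Oatp pairs apart.

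**Figure D2:**
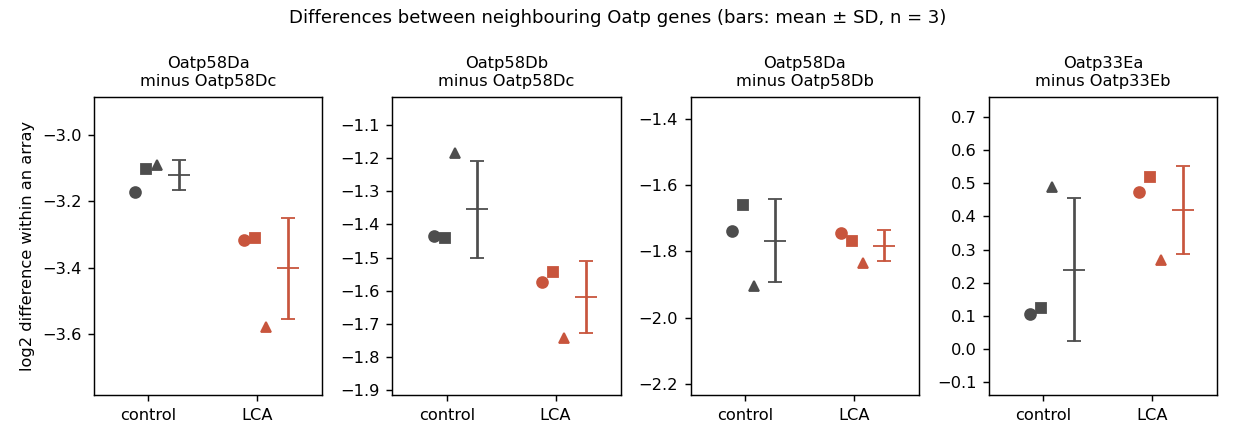
Log2 difference between 2 Oatp genes within each array, by diet, for the 3 pairs of the 58D cluster and for the pair of Oatp33Ea and Oatp33Eb, with the mean and SD of each diet (n = 3). Circles, squares and triangles are replicates 1, 2 and 3; Oatp58Da and Oatp58Db are lower relative to Oatp58Dc in all LCA arrays, while their difference from each other overlaps between diets.

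Of the genes outside the cluster, Oatp30B was the steadier beside Oatp74D. It read 9.33, 9.04 and 9.15 in control replicates 1 to 3 and 8.82, 8.79 and 8.56 in LCA replicates 1 to 3. All LCA arrays lay under all control arrays by at least 0.22. The difference was −0.45 ± 0.12 (SE; 95% interval −0.73 to −0.17), a signal 26.6% lower, with an adjusted p of 0.175 in limma. It stayed between −0.51 and −0.36 when each array was left out in turn. The suffix of its probe set marks it as one that may match several transcripts.

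The probe set of Oatp26F was dim, under the median of every array, and no detection call accompanies these values. It read 5.52, 5.20 and 5.37 in control replicates 1 to 3 and 5.07, 5.39 and 4.60 in LCA replicates 1 to 3. LCA replicate 2 reached the control arrays and LCA replicate 3 was the lowest. The difference was −0.34 ± 0.21 (SE; 95% interval −0.83 to 0.15), with an adjusted p of 0.368 in limma, and −0.13 without LCA replicate 3.

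Oatp33Ea and Oatp33Eb varied more among control pools than between diets. Oatp33Ea read 8.49, 8.32 and 7.44 in control replicates 1 to 3 and 8.41, 8.13 and 8.19 in LCA replicates 1 to 3. Oatp33Eb read 8.38, 8.20 and 6.95 in control replicates 1 to 3 and 7.94, 7.62 and 7.92 in LCA replicates 1 to 3. In both genes control replicate 1 was the highest array and control replicate 3 the lowest, and the LCA arrays lay between them. The differences were 0.16 ± 0.27 for Oatp33Ea and −0.02 ± 0.36 for Oatp33Eb (SE), with adjusted p of 0.766 and 0.983 in limma. Without control replicate 3 they were −0.16 and −0.46. The 95% interval of Oatp33Eb ran from −0.89 to 0.85, so a difference of the size measured for Oatp74D would not have been detectable.

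The midgut markers had their lowest median in the same control array as the pair of Oatp33Ea and Oatp33Eb. Relative to each gene's mean over all arrays, the median of the 8 measured midgut markers, of 11 listed, was 0.25, 0.23 and −0.41 in control replicates 1 to 3 and 0.20, 0.03 and −0.17 in LCA replicates 1 to 3. Not every marker followed. The genes alphaTry, betaTry, Mal-A1 and Jon65Aiii were lowest in control replicate 3. The gene thetaTry was lowest in LCA replicate 1, and LManVI and Vha100-4 in LCA replicate 3. The marker mag was lowest in control replicate 2 and highest in control replicate 3, at 9.63. The summed signal of the 8 markers, which the brightest probe sets dominate, was 14.2 to 15.1 in control arrays and 14.7 to 15.0 in LCA arrays on the log2 scale. Their median diet difference was 0.03. The part of gut content in the Oatp33Ea and Oatp33Eb values was not tested.

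**Figure D3:**
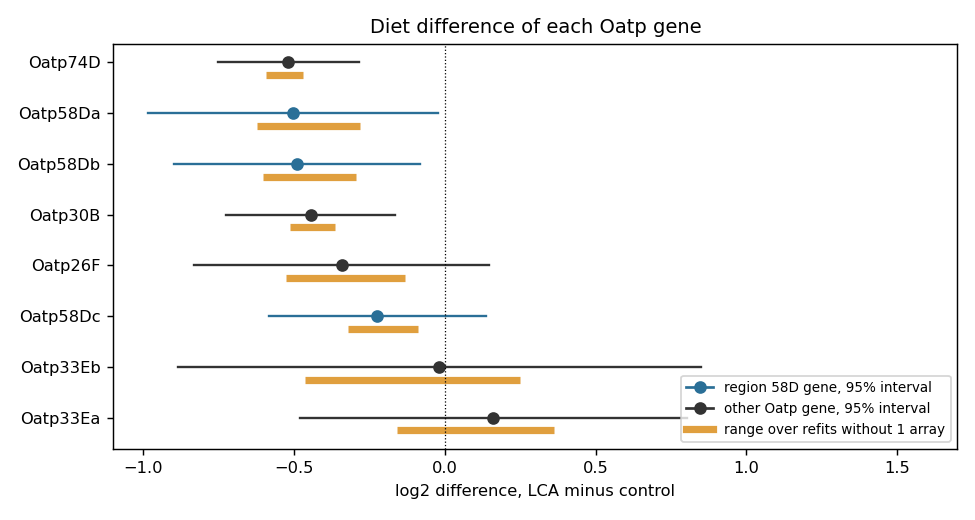
Log2 difference, LCA minus control, of each Oatp gene (points) with limma's 95% interval (thin lines) and the range over 6 refits that each left out 1 array (thick lines). The intervals of Oatp74D, Oatp30B, Oatp58Db and Oatp58Da lie under 0, and the thick lines of Oatp33Ea and Oatp33Eb cross it.

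The tubule cluster and the other members were set side by side without a test, since a score over chosen genes has none here. The median difference was −0.49 over the 3 genes of the cluster, with a range from −0.50 to −0.22. It was −0.34 over the 5 other genes, with a range from −0.52 to 0.16. Oatp74D and Oatp30B, which lie outside the cluster, had differences like those of Oatp58Da and Oatp58Db. Without LCA replicate 3 the medians were −0.28 and −0.13.

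LCA replicate 3 was the lowest of the 6 arrays in 6 Oatp genes, all but the pair of Oatp33Ea and Oatp33Eb, and in 21.3% of all genes. The median of the tubule markers was lowest in that array too. Of 11 measured tubule markers, of 14 listed, 10 were lower in LCA flies and none passed limma's adjusted threshold or an unadjusted p of 0.05, with a median difference of −0.23. The tubule urate oxidase gene Uro was not analysed here. Relative to each gene's mean, their median was 0.22, 0.09 and 0.02 in control replicates 1 to 3 and −0.04, −0.01 and −0.35 in LCA replicates 1 to 3. Their summed signal on the log2 scale was 11.8 to 11.97 in control arrays and 11.6 to 11.8 in LCA arrays. Without LCA replicate 3 their median difference was −0.13, and with each gene's probe set of lowest mean it was −0.16. The tubule markers with the smallest p were Lkr, the leucokinin receptor of tubule stellate cells (−0.37 ± 0.16, SE), the potassium channels Irk3 (−0.36 ± 0.16) and Irk1 (−0.26 ± 0.15), and Dh44-R2, a diuretic hormone receptor (−0.26 ± 0.15). The 1 tubule marker that was higher was ClC-a (0.12 ± 0.10, SE), which read highest in LCA replicate 3, at 9.29. ClC-a, Dh31-R, tsh and ZnT35C did not have their lowest signal in that array, while the other measured tubule markers did. Whether the share of tubule RNA moved the 58D genes was not tested.

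**Figure D4:**
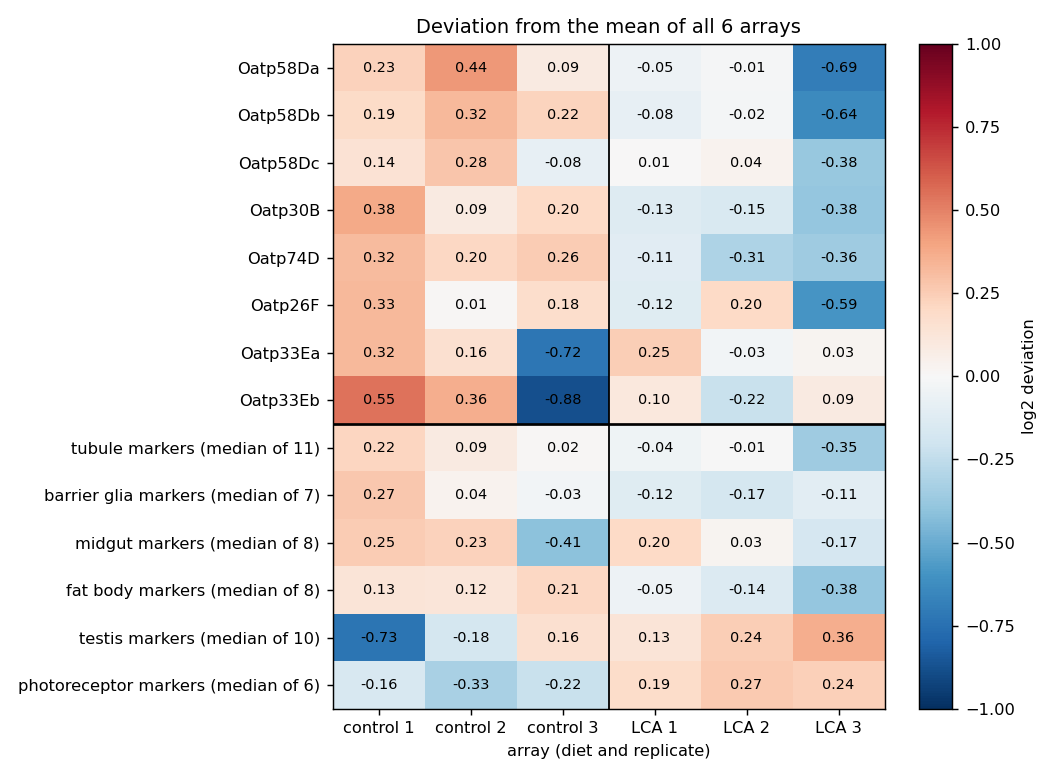
Log2 deviation of each Oatp gene from its mean over the 6 arrays (upper rows) and the median deviation of the marker genes of 6 tissues (lower rows), one column per array. LCA replicate 3 is low in the 58D genes, Oatp26F and the medians of the tubule and fat body markers. Control replicate 3 is low in the pair of Oatp33Ea and Oatp33Eb and the median of the midgut markers. Single markers need not follow these medians.

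The barrier glia, fat body, testis and photoreceptor lists also had median differences away from 0, though none of their genes passed limma's adjusted threshold. All 7 genes listed as markers of barrier glia were lower, with a median of −0.24. Their summed log2 signal was 11.8 to 12.2 in control and 11.7 to 11.9 in LCA arrays. In whole-fly RNA the septate junction genes on this list need not come from glia, so it does not single out that tissue. Of these 7 genes only sinu, a claudin of septate junctions, had an unadjusted p under 0.05 in limma (−0.26 ± 0.10, SE). All 8 measured fat body markers, of 9 listed, were lower (median −0.27, summed log2 signal 15.1 to 15.3 in control and 14.7 to 14.996 in LCA arrays). All 10 measured testis markers, of 12 listed, were higher (median 0.50, 13.1 to 14.1 and 14.1 to 14.4). So were all 6 measured photoreceptor markers, of 12 listed (median 0.47, 14.54 to 14.57 and 14.88 to 14.94). At an unadjusted p under 0.05 in limma, 2 fat body markers were lower, and 3 testis and 6 photoreceptor markers were higher. Over all genes 9.77% were lower and 8.33% higher at that threshold. When the per-array median of the testis markers was added as a covariate, 1 Oatp gene, Oatp74D, was lower at an unadjusted p under 0.05, and the count over all genes was 699, against 1171 without the covariate. Oatp58Da was then at −0.37, Oatp58Db at −0.44, Oatp30B at −0.30 and Oatp33Ea at 0.69 (unadjusted p = 0.0141 in limma). With that covariate the median difference was −0.08 for the tubule, −0.06 for the barrier glia, −0.23 for the fat body and 0.53 for the photoreceptor markers. The part of testis RNA in these differences was not tested. The 3′ to 5′ difference of the array controls, a measure of RNA and labelling quality, was 3.096 ± 0.20 in control and 3.34 ± 0.08 in LCA arrays (SD, n = 3 each). An exact permutation test, two-sided, gave p = 0.2 for it. With it in the fit Oatp58Da was at −0.24 and Oatp58Db at −0.28, and Oatp30B at −0.54.

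Other carriers and pumps of organic compounds had a median difference near 0. This list held 10 genes, of the ABC drug and multidrug resistance pumps and of the organic ion carriers of another family, all measured. In LCA flies 6 were lower and 4 higher, with a median difference of −0.05, and none passed limma's adjusted threshold. CarT, a carcinine carrier of the photoreceptors, was 0.32 ± 0.13 higher (SE), with an unadjusted p of 0.0463 in limma, though its diets overlapped. Mdr65, the pump of the blood-brain barrier, was at −0.24 ± 0.13. E23, an ecdysone-induced ABC transporter, was at −0.15 ± 0.14, and SLC22A, an organic cation carrier, at 0.15 ± 0.15. MRP, a multidrug resistance pump that exports conjugated anions, was at −0.11 ± 0.17.

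Genes of ecdysone synthesis, breakdown and response went both ways. Of 15 measured genes, of 17 listed, 9 were lower and 6 higher in LCA flies, with a median of −0.10. None passed limma's adjusted threshold, and 4 were lower at an unadjusted p under 0.05, as were 9.77% of all genes. Cyp18a1, the cytochrome P450 that inactivates ecdysone, read 8.21, 7.90 and 8.07 in control replicates 1 to 3 and 7.71, 7.44 and 7.14 in LCA replicates 1 to 3. Its diets did not overlap, and the difference was −0.63 ± 0.16 (SE; adjusted p = 0.170 in limma). The ecdysone receptor EcR differed by −0.34 ± 0.10 and the synthesis enzymes sad and dib by −0.34 ± 0.10 and −0.32 ± 0.09. All 3 had signals under the median of every array. The receptor's partner usp was at −0.15 ± 0.13, and the response genes Hr3, ftz-f1 and Eip93F were at 0.19 ± 0.17, 0.06 ± 0.15 and −0.08 ± 0.11.

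**Figure D5:**
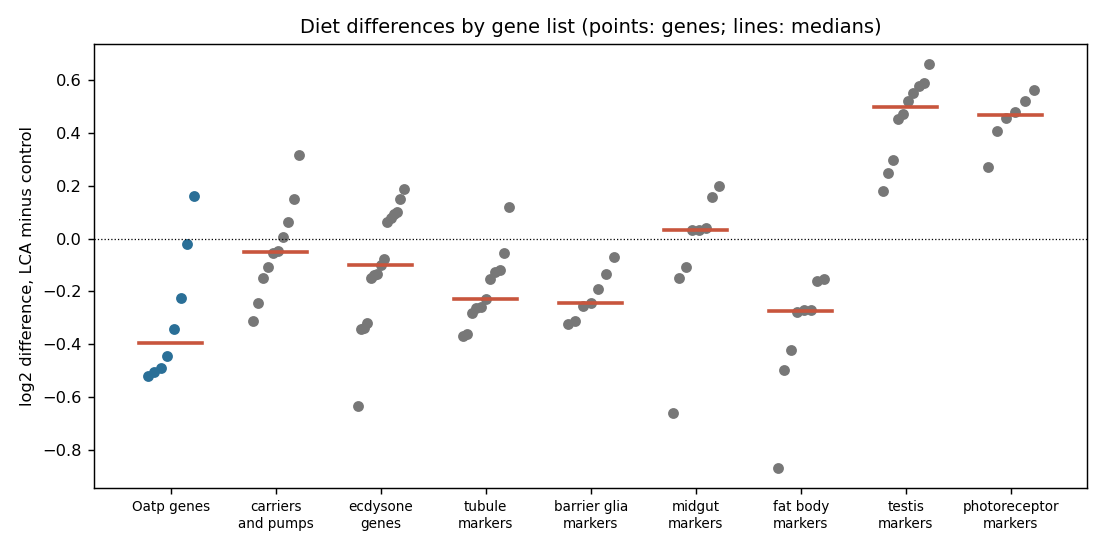
Log2 difference, LCA minus control, of each gene (points) and the median (lines) for the 8 Oatp genes, 2 related gene lists and 6 lists of tissue markers. The Oatp median is −0.39, the carriers and pumps have a median of −0.05, and all points of the testis and photoreceptor markers lie above 0.

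The genes whose log2 signal ran most like that of an Oatp gene over the 6 arrays were sought among genes at or above the median signal by Pearson correlation, which is given as a description because the 6 points share 2 diets. For Oatp74D they were CG5326 (r = 0.999), MSBP (0.999) and Hnf4 (0.997). For Oatp30B they were B4 (0.998), path (0.993) and Mlc1 (0.993). CG13309 (0.995), CG8745 (0.993) and CG9664 (0.992) were closest to Oatp58Da, and Cyp6d5 (0.994), CG18473 (0.994) and CG16898 (0.992) to Oatp58Db. For Oatp58Dc they were CG15155 (0.993), Acox57D-p (0.990) and CG17029 (0.988). For Oatp33Ea they were CG18493 (0.995), Gp93 (0.993) and dco (0.993), and for Oatp33Eb hoka (0.996), CG18480 (0.996) and Prp8 (0.995). Oatp26F had the loosest company, with CG33080 (0.983), CG5697 (0.978) and the tubule marker Best2 (0.966). With so few arrays high values are common: 466 genes correlated with Oatp74D, and 44 with Oatp26F, at r above 0.9.

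Of 5 measured coding genes that overlap an Oatp gene in the annotation, 4 had a higher mean in LCA flies and 1 a lower mean. The immune-induced gene edin, which overlaps Oatp74D, was at 0.05 ± 0.22 (SE). CG31883, which overlaps Oatp30B, was at 0.55 ± 0.20, and CG34345, which overlaps Oatp26F, at 0.34 ± 0.10. CG30278, which overlaps Oatp58Da, was at 0.58 ± 0.32, and CG5418, which overlaps Oatp33Eb, at −0.09 ± 0.08. The genes edin, CG34345 and CG5418 were dim, with signals under the median of every array. The position of the probes within the genes was not used here.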

How the data were processed

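The deposited table held log2 signals of 18952 probe sets for 6 samples. The log2 scale was inferred from the deposited values (2.32 to 14.6). How probes were summarized, corrected for background and normalized is not given in the sources used here. No batch was named, and no 2 arrays held the same values (smallest median absolute difference 0.10).

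Probe sets were named through GEO's platform annotation, updated through the gene table of assembly Release 6 plus ISO1 MT, used for names and neighbours alone. Of 18769 probe sets without the 183 controls, 13647 had 1 symbol, 402 several and 4720 none. A gene took its probe set with the highest mean.

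limma 3.58.1 in R 4.3.3 (lmFit, eBayes, no covariate) was fitted over all genes, with Benjamini-Hochberg adjustment and a threshold of 0.05, and tested on simulated data. Replicate numbers were not taken as pairs: deviations of same-numbered samples correlated at 0.26, −0.02 and 0.02. The 3′ to 5′ difference averaged 4 control pairs.

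The members and lists were chosen with earlier results of these data known. Named were all members, up to 4 genes of smallest p per list described, those of the carrier and ecdysone lists at an unadjusted p under 0.05, and the 3 most correlated genes per member. MRP, usp, Hr3, ftz-f1, Eip93F, the overlapping genes and the other midgut and tubule markers named were added after their values were seen. Alternatives numbered 18.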

Additional observations from a re-analysis of the deposited data

How the results depend on the processing

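Under 18 alternatives (scaling, filters, a floor, eBayes settings, choice of probe set, the replicate block, 2 covariates and each array left out), none of the 8 Oatp genes and none of all genes passed the adjusted threshold of limma. Oatp74D, Oatp30B, Oatp26F and the 3 genes of the 58D cluster were lower in LCA flies under each alternative that kept their probe set: the filter at the median dropped Oatp26F, and leaving out probe sets with an ambiguous suffix dropped Oatp30B. With the replicate block the Oatp median was −0.39 and 4 Oatp genes were lower at an unadjusted p under 0.05, as without it; 3 of 6 samples were closest to the sample of the other diet with their own number. When each array was left out in turn, the Oatp median lay between −0.49 and −0.21, that of the cluster between −0.60 and −0.28, that of the other members between −0.48 and −0.13, and the count at an unadjusted p under 0.05, an addition made after seeing the data, between 2 and 5. That count was 1 after adding the testis markers and 2 after adding the 3′ to 5′ measure as a covariate, while the count over all genes was 699 and 793, against 1171 in the fit without covariates. The median of the members outside the cluster was −0.18 with the testis markers and −0.18 over the 4 genes left without ambiguous probe sets. Oatp33Eb turned positive with the testis markers (0.66), without control replicate 1 (0.25), without control replicate 2 (0.16) and without LCA replicate 2 (0.09), and Oatp33Ea turned negative without control replicate 3 (−0.16); over all arrays left out in turn, Oatp33Ea ran from −0.16 to 0.36 and Oatp33Eb from −0.46 to 0.25. The cause was not tested. The number of arrays limits what could be detected, and Oatp26F was dim.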
